A study of Mus musculus with 12 samples.

Results

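The data on genes best known from the projection neurons of the striatum were examined in RNA from mouse frontal cortex. The 9 genes were Ppp1r1b, Drd2, Adora2a, Rgs9, Pde10a, Adcy5, Gnal, Gpr6 and Rarb. The set was chosen from an earlier reading of these same gene differences, so the gene values below are a description and lend no support to a shift of the set. The gene table held 8 of the 9 among its 15191 genes, and Drd2 was not analysed here. The exon bin table held bins of the same 8 genes.

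Frontal cortex came from 6 male C57BL/6 mice of genotype Adar2-/- Gria2R/R and from 6 male litter mates of genotype Adar2+/+ Gria2R/R. Adar2 is the RNA editing enzyme encoded by Adarb1. All 12 mice carried the Gria2R allele, which encodes arginine in the genome at the AMPA receptor codon that ADAR2 otherwise edits, so neither group is a plain wild type. Total RNA was sequenced after removal of ribosomal RNA. Ages and litters are not given in the labels.

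The striatum lies beneath the frontal cortex, with white matter between them. Its projection neurons are inhibitory and fall into 2 kinds, those of the direct pathway, which carry the D1 dopamine receptor, and those of the indirect pathway, which carry the D2 dopamine receptor and an adenosine receptor. In both kinds, receptors act through the olfactory-type G protein on adenylyl cyclase, and the cAMP made there activates protein kinase A, whose substrate DARPP-32 then inhibits protein phosphatase 1. Several of these genes are also transcribed by cortical neurons, Ppp1r1b among them in deep layers, so their mRNA in a cortical sample does not by itself name a cell of origin.

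The deposited values are means and ratios over all libraries, with no value per library, so no spread per group is given. The variation between mice enters only through the authors' p-values and, for exon bins, a dispersion. The gene table heads its groups A and B without a genotype. Each log2 ratio of a gene below is A over B, the deposited B over A with its sign turned. Adarb1 was lower in A by a log2 ratio of -2.21 in the authors' deposited table (adjusted p = 3.06e-126). This level was not used to name the groups. The exon bin table does name its groups, and bin E009 of Adarb1 had a log2 usage of -5.23, knockout over control, in the authors' deposited table.

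Stretches of 2 promoter windows are shown because they hold the letters of response elements of the retinoid and cAMP pathways to which the genes belong. RefSeq windows on GRCm38.p6, from 250 bases before to 50 after a gene start, were found for 6 of the 9 genes (7 windows, 2 of them for Pde10a). There was no window for Ppp1r1b, Adora2a and Gnal. Each window was searched on both strands. The retinoic acid response element was searched as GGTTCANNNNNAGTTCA and the palindromic cAMP response element as TGACGTCA. The stretches below are on the minus strand, at chr14:16575477-16575565 for Rarb and chr10:41072325-41072404 for Gpr6, and capitals mark the match.
Rarb: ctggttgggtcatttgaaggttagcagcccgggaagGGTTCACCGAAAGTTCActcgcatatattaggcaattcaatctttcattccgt
Gpr6: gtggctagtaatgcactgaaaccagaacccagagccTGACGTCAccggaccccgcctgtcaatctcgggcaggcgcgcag

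The Rarb match, a direct repeat with 5 bases between its repeats, ran from position -53 to -37 relative to the gene start. The letters searched are those of the element known from the Rarb promoter itself, so a match in Rarb was fixed by that choice and its rarity is a description. Of 32851 RefSeq windows, 2 (0.00609%) held them, that of Rarb included. The Gpr6 match ran from position -78 to -71, and 588 windows (1.79%) held it. The other member windows held neither set of letters, which says nothing about binding.

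The genes differed widely in abundance. Per kilobase of exon, with the union of GENCODE M21 exons as length, Gnal was the most abundant at a mean of 484 normalized counts per kilobase over both conditions. Gnal encodes the alpha subunit of the olfactory-type G protein. Adcy5, the adenylyl cyclase that this subunit drives in striatum, followed at 437 normalized counts per kilobase. Ppp1r1b, which encodes DARPP-32, had 218 and Pde10a, a phosphodiesterase that breaks down cAMP and cGMP, had 172 normalized counts per kilobase. These 4 lay above the median of 152 over 13258 genes.

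The remaining genes lay below that median. Rarb, a nuclear receptor for retinoic acid, had 67.2 normalized counts per kilobase. Rgs9, which speeds the shut-off of G proteins after dopamine and opioid receptors, had 33.3 normalized counts per kilobase. The 2 genes of indirect pathway receptors were the scarcest, with 16.3 normalized counts per kilobase for Gpr6, an orphan receptor that raises cAMP, and 10.8 for Adora2a, an adenosine receptor that acts against the D2 receptor. Without values per library it was not tested which neighbours in this order differ.

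**Figure D1:**
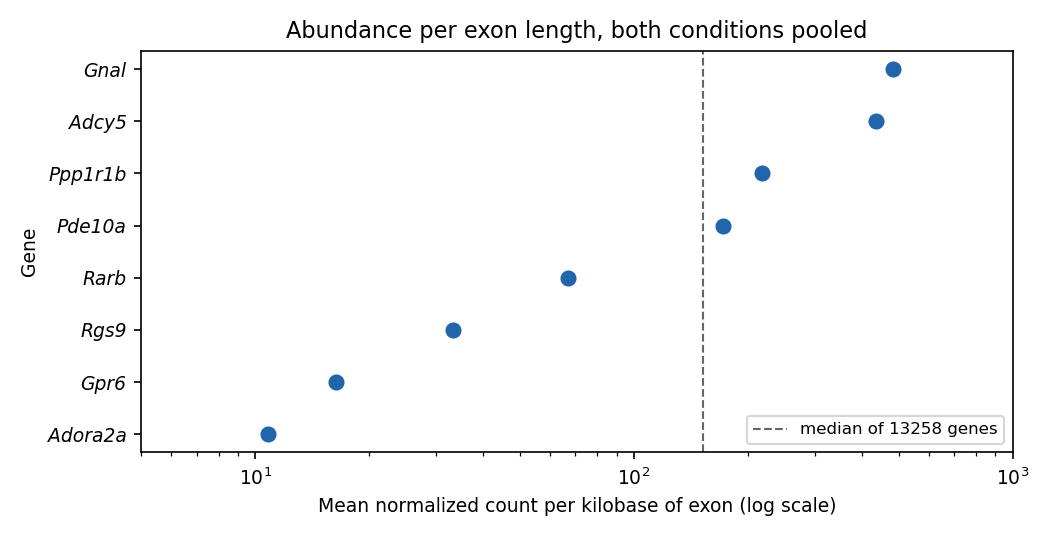
Mean normalized count per kilobase of exon (log axis) for the 8 striatal projection neuron genes with a value, both conditions pooled; the dashed line is the median of 13258 genes. Gnal, Adcy5, Ppp1r1b and Pde10a lie above the line, and Rarb, Rgs9, Gpr6 and Adora2a lie below it.

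All 8 genes had a positive log2 ratio of A over B in the authors' deposited table, where 52.9% of all listed genes had one. Because these values chose the genes, nothing is read from that count. The ratios ran from 0.02 for Gnal to 0.45 for Adora2a, with a median of 0.12, against 0.01 over all listed genes. The median was 0.0565 without any 1 of Ppp1r1b, Adora2a, Rgs9 and Gpr6, and 0.179 without any 1 of Gnal, Adcy5, Pde10a and Rarb. No gene of the set had an adjusted p under 0.05, the threshold used throughout, and 0.0197% of all genes did. In these bulk samples, a different number of cells of a kind and a different amount of RNA per cell cannot be told apart.

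Among the signalling proteins, Ppp1r1b stood apart from the rest by its p. In the authors' deposited table it had a mean of 638 normalized counts and was 1.23-fold higher in A, a log2 ratio of 0.30 (p = 0.00242, adjusted p = 1). It ranked 31st by p among the 15191 genes and was the only gene of the set with an unadjusted p under 0.05, which 1.86% of all genes had. Its ratio was at the 96.4th percentile of all listed genes. Rgs9 had a mean of 213 normalized counts and a log2 ratio of 0.22 in the authors' deposited table (p = 0.0845, adjusted p = 1). No other gene of the set had a p under 0.3.

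The G protein and the cAMP enzymes were close to equal in A and B. In the authors' deposited table the log2 ratio was 0.02 for Gnal (5412 normalized counts, p = 0.842), 0.03 for Adcy5 (3137 normalized counts, p = 0.758) and 0.05 for Pde10a (2205 normalized counts, p = 0.894). Rarb, a regulator of transcription, was at 0.06 (354 normalized counts, p = 0.504) in the authors' deposited table. These 4 ratios correspond to 1.01-fold to 1.04-fold, and each adjusted p was 1. The 3 genes with the highest mean count thus had the smallest ratios of the set.

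The receptors had larger ratios and fewer reads. Adora2a had a mean of 33.0 normalized counts and was 1.37-fold higher in A in the authors' deposited table, a log2 ratio of 0.45 (p = 0.309, adjusted p = 1). Gpr6 had a mean of 29.2 normalized counts and a log2 ratio of 0.18 in the authors' deposited table (p = 0.349, adjusted p = 1). The lowest mean count listed for any gene was 15.01, so both lay near the lower end of the table. Over 1.2-fold higher in A were 2 of the 8 genes, Adora2a and Ppp1r1b, against 4.67% of all genes. Of genes with a mean count under 50, 16.7% passed that fold, and of the 2 genes of the set at such counts Adora2a did.

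**Figure D2:**
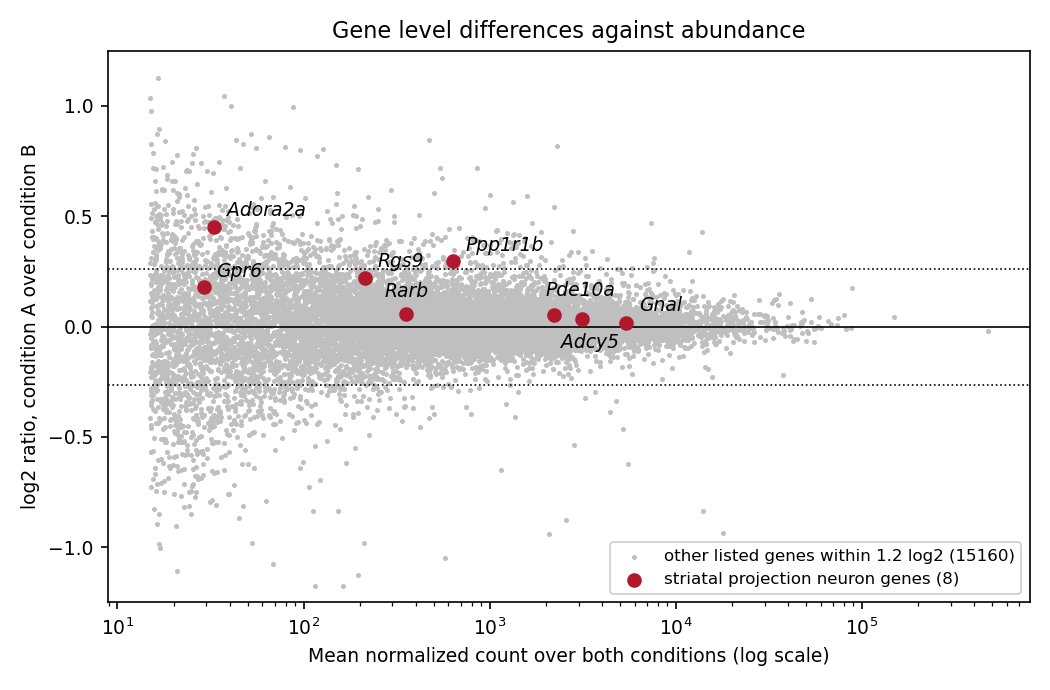
The log2 ratio of A over B against the mean normalized count over both conditions (log axis), with the striatal projection neuron genes in red and other genes within 1.2 log2 in grey; dotted lines mark 1.2-fold. Adora2a at 0.45 and Ppp1r1b at 0.30 lie above the upper line, and Gnal, Adcy5, Pde10a and Rarb lie within 0.06 of equality.

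Exon bins asked whether the genotypes differed in how parts of each gene were used. A bin is a stretch of exon counted on its own, and its ratio is usage within the gene, not the level of the gene. Of 97 bins in the 8 genes, 48 were higher and 49 lower in the knockout than in the control, with a median log2 usage of -0.002. In the authors' deposited table none had an adjusted p under 0.05, where 0.00738% of all 149137 bins with a p did. A single bin had an unadjusted p under 0.05, against 1.67% of all bins. The median dispersion, a score of the spread between libraries in the authors' count model, was 0.0170 over these bins and 0.0161 over all bins.

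The bin with that p was E016 of Pde10a. In the authors' deposited table it had a mean of 62.1 normalized counts and a log2 usage of -0.88, knockout over control (p = 0.0143, adjusted p = 1). Its dispersion of 0.156 in the authors' deposited table was the highest of the 33 Pde10a bins and above that of 99.7% of all bins. The bins listed on either side were much closer to 0, with -0.04 for E015 and -0.17 for E018 in the authors' deposited table. By a Simes p, which combines the bins of a gene, Pde10a was at 0.473, and the other 7 genes ranged from 0.143 for Adora2a to 0.961 for Gnal.

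The bins with the smallest p in the other genes were modest in size. E006 of Ppp1r1b had a log2 usage of -0.19 (48.7 normalized counts, p = 0.237), and E006 of Adcy5 had -0.20 (162 normalized counts, p = 0.0510), both in the authors' deposited table. E007 of Gnal, its bin with the fewest reads at 34.9 normalized counts, was at -0.42 (p = 0.135) in the authors' deposited table. The Gnal bin with the highest count, E015 at 4102 normalized counts, was at 0.03 (p = 0.707) in the authors' deposited table. E009 of Rarb was at 0.20 (p = 0.171) and E003 of Rgs9 at 0.47 (p = 0.126, 23.9 normalized counts) in the authors' deposited table. Adora2a and Gpr6 each had a single bin, at -0.19 (p = 0.143) and -0.01 (p = 0.771) in the authors' deposited table, so usage along these genes was barely covered. Every adjusted p was 1.

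**Figure D3:**
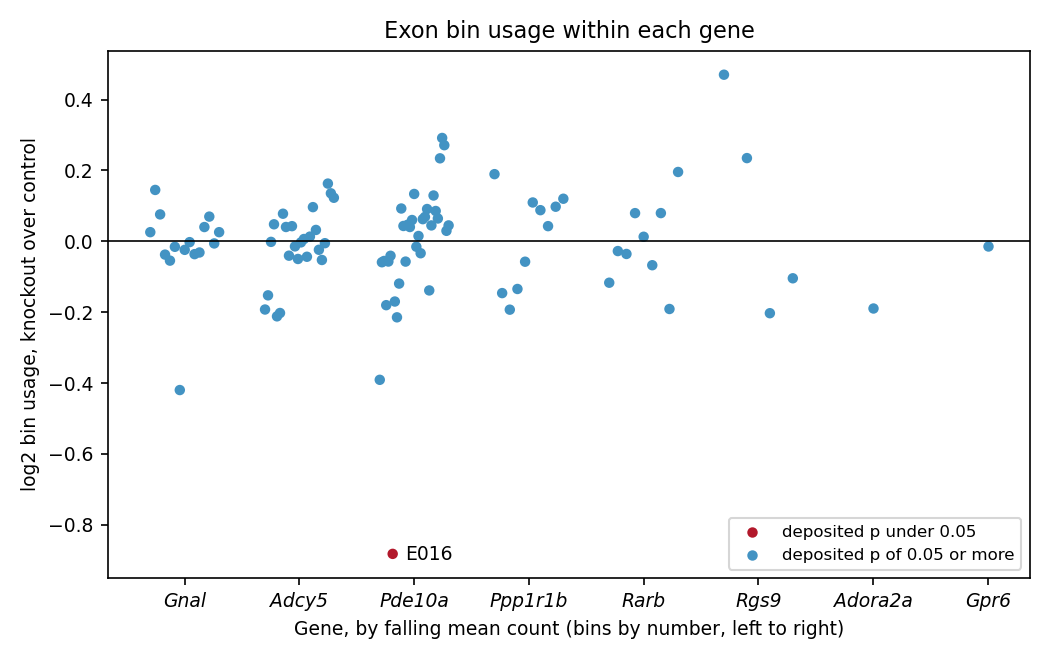
The log2 usage of each exon bin, knockout over control, in the 8 striatal projection neuron genes, ordered by falling mean count; each point is 1 bin, and red marks an unadjusted p under 0.05. E016 of Pde10a at -0.88 is the only red point, and most bins of Gnal, Adcy5 and Ppp1r1b lie within 0.2 of 0.

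In Pde10a the bins followed their order along the gene, a pattern noticed after the values were seen. From the 5′ to the 3′ end, the rank correlation of bin order with log2 usage was 0.702 over 33 bins, which share libraries and reads of the same transcripts. Of the first 16 bins 11 were lower in the knockout than in the control (median log2 usage -0.06), and of the last 17 bins 3 were (median 0.06). The rank correlation was 0.463 for Adcy5 (24 bins), 0.358 for Ppp1r1b (10 bins), 0.025 for Gnal (15 bins) and -0.333 for Rarb (9 bins). Over 6336 genes with at least 9 bins the median was -0.002, and 49.6% were above 0, so genes at large showed no common order. The value of Pde10a was at the 97.4th percentile of those genes, which can have far fewer bins than its 33. Over the 2288 genes with at least 20 bins the median was 0.028, and 53.2% were above 0. The percentile of Pde10a among these was not computed. What moved with the order of the Pde10a bins was not tested.

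No gene of the set was among the genes with the 143 edited sites in the authors' deposited editing table. The share of all listed genes with such a site was not computed, so nothing is read from this absence.

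Wider lists of striatal genes were set beside the 9. They were written with earlier results of these data known, and no list test was run. The 3 striatal lists held 41 further genes outside the set, 33 of them in the gene table. Of these 33, 19 were higher and 14 lower in A (57.6% higher, against 52.9% of all genes), with a median log2 ratio of 0.001. None had an adjusted p under 0.05, and 1 had an unadjusted p under 0.05, against 0.0197% and 1.86% of all genes. Since the set was chosen for its ratios, that choice alone can set a difference between both medians.

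That gene was Pdyn, of the direct pathway, which encodes the precursor of dynorphin peptides. It had 949 normalized counts and a log2 ratio of 0.33 in the authors' deposited table (p = 0.000253, adjusted p = 0.457). Of 7 direct pathway genes with a value, 4 were higher and 3 lower in A, with a median of 0.08. Among them were Chrm4, a muscarinic receptor, at -0.12 (p = 0.201), the transcription factor gene Ebf1 at -0.15 (p = 0.327) and Sfxn1 at 0.08 (p = 0.372) in the authors' deposited table. The D1 receptor gene, listed as Drd1a, was at 0.19 (282 normalized counts, p = 0.493) in the authors' deposited table.

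Of 6 indirect pathway genes with a value, 5 were higher in A, with a median of 0.13, but Adora2a and Gpr6 are themselves of the set, and the other 4 genes split 3 and 1 around a median of 0.06. Penk, which encodes the enkephalin precursor and had 920 normalized counts, was at -0.03 (p = 0.553) in the authors' deposited table. Gprin3 was at 0.07 (p = 0.567) in the authors' deposited table. Of 28 genes shared by both kinds of neuron, 18 were higher and 10 lower in A, with a median of 0.01. Of these, 6 are of the set, chosen for positive ratios, and the other 22 split 12 and 10 around a median of 0.001. The highest mean counts were those of Itpr1 and Arpp21, at 56446 and 12568 normalized counts. Itpr1, a calcium release channel of the endoplasmic reticulum, was at -0.01 and the cAMP-regulated phosphoprotein gene Arpp21 at 0.02 in the authors' deposited table. Which cells these transcripts came from was not tested. Zfp503, a transcription factor of striatal development, was at -0.48 with 20.5 normalized counts (p = 0.0969) in the authors' deposited table.

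The signalling partners of the set split almost evenly. Of 31 genes of dopamine and cAMP signalling with a value, 15 were higher and 16 lower in A, with a median of -0.01. That is 48.4% higher, against 52.9% of all genes. None had a p under 0.05, which only 1.86% of all genes had, so nothing is read from that count. The smallest p was that of the phosphodiesterase gene Pde7b, at -0.22 (p = 0.118), followed by Pde2a at 0.10 (p = 0.172) and Ppp3r1, a calcineurin subunit, at -0.12 (p = 0.198) in the authors' deposited table. Ppp3ca, the catalytic subunit of calcineurin, was at -0.03 and Gnas, the other stimulatory G protein alpha subunit, at 0.01 in the authors' deposited table. The other 8 adenylyl cyclase genes split 4 and 4 around a median of 0.001, from -0.05 to 0.12. Adcy9 was at 0.12, Adcy6 at 0.11 and Adcy7 at 0.06, and Adcy1 and Adcy2, with the highest counts, were at -0.02 and -0.01 in the authors' deposited table.

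Retinoid genes, the partners of Rarb, had a median of 0.02 over 13 genes, 8 higher and 5 lower in A. Aldh1a1, which makes retinoic acid, had the only unadjusted p under 0.05 among them, at 0.23 (948 normalized counts, p = 0.0288, adjusted p = 1) in the authors' deposited table. Of all genes, 1.86% had such a p. Aldh1a3, a relative of Aldh1a1, was at -0.44 (p = 0.144) and the receptor gene Rxrb at 0.07 (p = 0.559) in the authors' deposited table.

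Marker lists of cortical layers and neighbouring regions are given as measured beside the striatal genes. Markers of layers 2 and 3 had a median of 0.08, 5 higher and 2 lower in A. Wfs1, an endoplasmic reticulum membrane protein, was at 0.54 (p = 0.00131), and Lamp5, listed as 6330527O06Rik, at -0.39 (p = 0.0152), so the 2 smallest p-values of this list pointed opposite ways in the authors' deposited table. Cux2, Calb1 and Rasgrf2 were at 0.18, 0.06 and -0.01 in the authors' deposited table. In layer 4, Rspo1 was at -0.69 (122 normalized counts, p = 0.000448, adjusted p = 0.667) and Rorb at 0.15 (p = 0.153) in the authors' deposited table. Layer 5 markers split 4 and 4 around a median of 0.04, with Parm1, Bcl6 and Etv1 at 0.19, 0.13 and 0.08, Crym at -0.01 and Fam84b at -0.06 in the authors' deposited table.

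Markers of layer 6 and the subplate, the cortical cells nearest the white matter and striatum, had a median of 0.18, with 7 higher and 1 lower in A. Ntsr1, a neurotensin receptor, was at 0.999 with 40.8 normalized counts (p = 0.0202), whereas Moxd1 was at -0.39 (p = 0.00589) in the authors' deposited table. Tbr1 was at 0.19 (p = 0.324) and Tle4 at 0.06 (p = 0.855) in the authors' deposited table. No layer marker had an adjusted p under 0.05, which 0.0197% of all genes had. Markers of the claustrum and endopiriform nucleus, which lie between cortex and striatum, had a median of 0.10 over 6 genes. Of these, 4 were higher and 2 lower in A. Oprk1, Synpo2, Lxn and Nr4a2 were at 0.33, 0.31, 0.17 and 0.04, and Ntng2 and Gnb4 at -0.04 and -0.13, in the authors' deposited table. None had a p under 0.05, which 1.86% of all genes had.

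Genes of myelinating oligodendrocytes, which are abundant in the white matter between cortex and striatum, were measured as a list of 12. Of these, 6 were higher and 6 lower in A, with a median of 0.01 and a range from -0.11 to 0.07. Mbp, a structural gene of myelin with 8881 normalized counts, was at -0.09, and Mog and Aspa at -0.11 and -0.09, in the authors' deposited table. None had a p under 0.05, which 1.86% of all genes had.

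Other neighbouring tissues were covered by markers of very different abundance. Of 6 markers of forebrain cholinergic neurons, which the striatum also holds, only Slc5a7 had a value, at 0.26 with 35.9 normalized counts (p = 0.290) in the authors' deposited table. Olfactory bulb markers had a median of 0.22 over 7 genes, 5 higher and 2 lower in A. None had a p under 0.05, which 1.86% of all genes had. The 4 highest ratios all had a large p. Cdhr1 was at 0.40 with a p of 0.987 at 524 normalized counts in the authors' deposited table. Th was at 0.50 (p = 0.924), Eomes at 0.32 (p = 0.940) and Doc2g at 0.22 (p = 0.872) in the authors' deposited table. Tbx21 was at -0.77 (26.2 normalized counts, p = 0.378), Calb2 at -0.02 and Nmb at 0.04 in the authors' deposited table. Neuroblast and subventricular zone markers had a median of 0.04 over 10 genes, 6 higher and 4 lower in A. Among them were Dcx at 0.07, Ccnd2 at -0.13, Top2a at -0.45 (29.0 normalized counts) and Dlx2 at -0.49 (21.1 normalized counts) in the authors' deposited table. Choroid plexus and ependyma markers had a median of 0.11 over 5 genes, 4 higher and 1 lower in A. Ttr was at 0.15 (34.7 normalized counts), Kl and Kcnj13 at 0.11 and Aqp1 at 0.25 in the authors' deposited table. Thalamus markers had a median of 0.004 over 6 genes, 3 higher and 3 lower in A. Slc17a6 was at -0.19, Tcf7l2 at 0.42, Prkcd at -0.09 and Rora at -0.01 in the authors' deposited table.

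**Figure D4:**
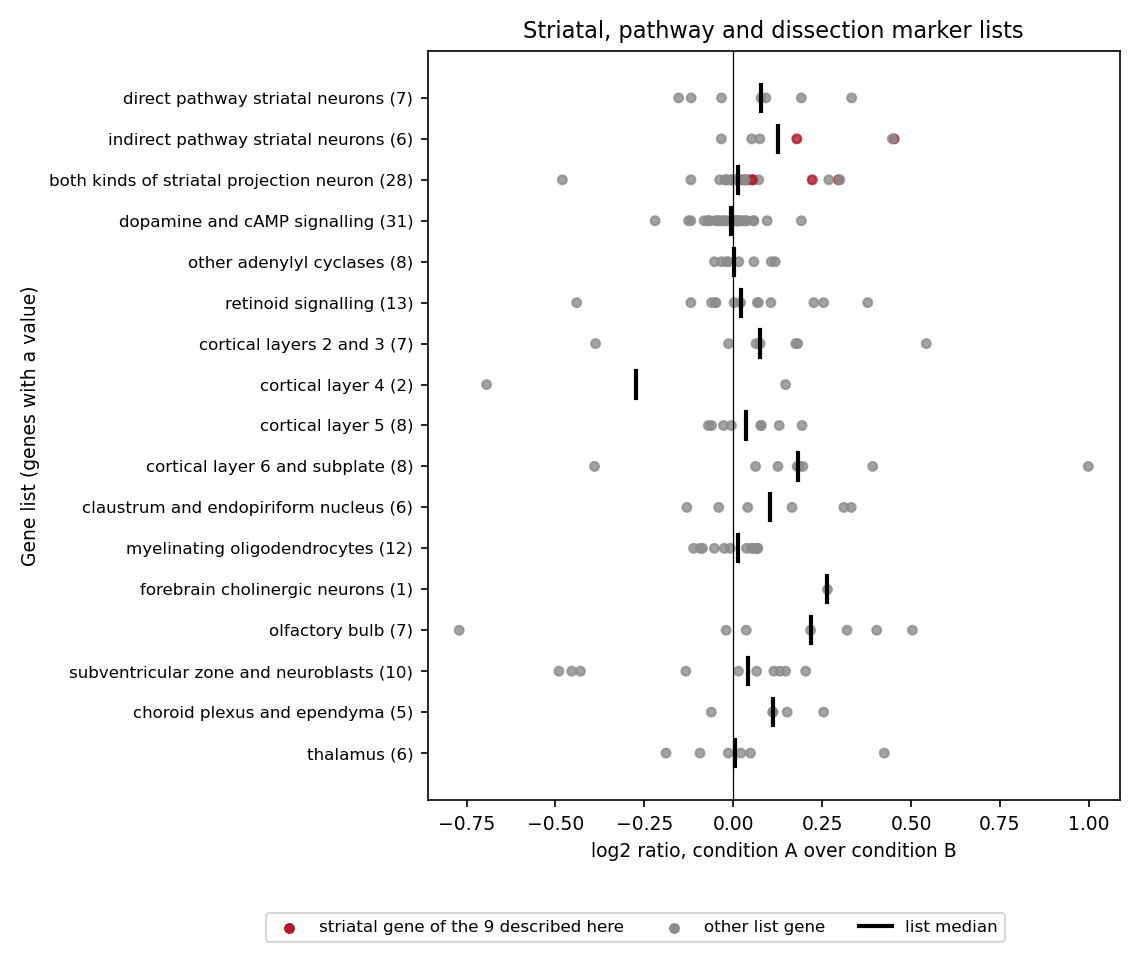
The log2 ratio of A over B of each gene (points) and the median (black bar) of 17 gene lists, with the striatal genes described here in red. The layer 6 and subplate list has its median at 0.18 and the olfactory bulb list at 0.22, whereas the lists of myelin genes and of genes shared by both kinds of striatal neuron lie at 0.01.

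Ppp1r1b, Adora2a, Rgs9 and Gpr6 were the genes of the set above 0.1, while Gnal, Adcy5, Pde10a and Rarb were near 0. Of the 33 further striatal genes, 19 were higher and 14 lower in A, with a median of 0.001 and a range from -0.48 to 0.45. Pdyn among them was at 0.33. Of the marker lists beside them, the medians were 0.22 for olfactory bulb (0.0987 as a mean), 0.18 for layer 6 and subplate, 0.11 for choroid plexus and ependyma and 0.10 for claustrum and endopiriform nucleus. The claustrum median was 0.0407 without its gene with the largest difference and 0.0623 at a mean count of at least 100. The 2 layer 4 genes went opposite ways, with Rspo1 at -0.69 and Rorb at 0.15, so their median of -0.27 is only a midpoint. Medians were 0.08 for layers 2 and 3, 0.04 for layer 5 and 0.01 for the myelin list. Whether the depth of dissection moved with the 4 higher genes was not tested, since that needs the levels of each library. From group values, a difference in the tissue taken and one within cells cannot be told apart.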

How the data were processed

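RNA of 12 frontal cortices (6 Adar2-/- Gria2R/R, 6 Adar2+/+ Gria2R/R, per the labels) was read from the authors' pooled tables, not from libraries. Tools listed in the submitters' processing notes, with no role or order, are DESeq, HTSeq, SAMtools 01.19.0, TopHat2 2.0.6 and Bowtie2 2.02.0, and the build is mm9. Per the file headers, the gene table holds a mean normalized count, a deposited signal over both conditions, with the authors' ratio and log2 ratio of B over A and their p-value and adjusted p-value. The exon table holds, per the file headers, a mean normalized count per bin, the log2 usage of control over Adar2, a p-value and a dispersion score, as deposited. The depositors named this table for DEXSeq, and its version is not given here. How deeply each library was sequenced is unknown, so no SD or interval is given. The 2 columns of means per condition name no genotype and were not used.

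Signs were turned to A over B and to knockout over control. The members, lists, tests and alternatives were chosen with earlier results of these data known. Deposited adjusted p-values imply a family of about 25289 genes, more than the 15191 listed. Counts per kilobase used exon lengths of GENCODE M21 for 13258 genes by symbol, and exon bins were matched by Ensembl ID. GENCODE strands ordered the bins, whose highest count lay at the last number in plus strand genes and at the first in minus strand genes (median positions 1 and 0). Named genes were the 9 members, Adarb1, and in each list the 3 genes with the smallest p and the 2 with the highest count. A few genes that this rule names are not reported here. Drd1a, Oprk1, Synpo2, Nr4a2, Th, Eomes, Doc2g, the Pde10a bins E015 and E018 and Gnal bin E015 were added after their values were seen. Benjamini-Hochberg and Simes code was tested on simulated p-values (Python 3.11.15, SciPy 1.17.1). The authors' p-values judge group differences against the spread between these libraries in their count model. The labels do not tie libraries to litters, so litter mates among the mice may not be independent.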

Additional observations from a re-analysis of the deposited data

How the results depend on the processing

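The members were chosen by these ratios, so their count of 8 higher in A is a description. It stayed at 8 when centred on all listed genes or on genes with a mean count of at least 1000. Both centring medians, 0.00633 and 0.00433, lay below the smallest member ratio, 0.0157 for Gnal, so centring could not change the count. At a mean count of at least 100 it was 6 of 6, and the share of all genes there was not computed. The members' median log2 ratio of 0.12 was 0.16 as a mean and 0.11 centred on all listed genes. It was 0.0485 as a mean weighted by count, 0.0550 at a mean count of at least 100 and 0.0565 without Ppp1r1b, and lay between 0.0565 and 0.179 with each member left out. The members called by adjusted p numbered 0 with an adjusted p under 0.1, over the listed genes alone or at a mean count of at least 100, and 1 by an unadjusted p. No member bin was called by adjusted p under 0.1, over the listed bins alone or at a bin count of at least 50. The 1 bin with an unadjusted p under 0.05 also passed at a bin count of at least 50, and 0 genes passed by a Simes p, against 1.66% of 12669 genes. With thresholds added after the data were seen, 4 members were over 1.1-fold and 0 over 1.5-fold higher in A, in place of 2. The shares of all genes past 1.1-fold and 1.5-fold were not computed, and these ratios chose the members. Nothing is read from these counts. Of the 17 lists, 6 had a median whose sign changed under at least 1 alternative, namely other adenylyl cyclases, layer 4, layer 5, myelinating oligodendrocytes, neuroblasts and thalamus; the cause was not tested.

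No paired analysis was possible because libraries have no values of their own in these tables. For the same reason no library was left out and no normalization was changed.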
